A study of Mus musculus with 12 samples.

Results

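The Iroquois homeobox genes of the mouse, Irx1 to Irx6, were followed in the hearts of 12 mice. They are 6 of the 53465 genes in the deposited table and were taken by symbol. The family was selected on measured values, with the differences between these same 12 libraries already in view, so its levels and differences are given as descriptions and no test is made of them. A17fl/fl mice, whose Adam17 alleles are floxed and which carry no Cre, and A17α-MHCKO mice, floxed littermates in which an α-MHC promoter drives Cre in cardiomyocytes so that Adam17 loses exon 2 in those cells, were male and 8 weeks old at the first injection. Each genotype received doxorubicin (DOX) by 4 intraperitoneal injections of 5 mg/kg on days 0, 7, 14 and 21, a cumulative 20 mg/kg, or the same volume of normal saline (NS), and hearts were taken 4 weeks after the last injection. There were 3 mice in each of the 4 groups, each with its own library, by the study's text of the left ventricle and by the labels of heart, and total counts per library ranged from 15950717 to 21725076.

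Iroquois proteins are transcription factors with a homeodomain of the TALE class, and they shape where along the heart wall and in which chamber other genes are used. The 6 genes lie in a pair of clusters, with Irx1, Irx2 and Irx4 on chromosome 13 and Irx3, Irx5 and Irx6 on chromosome 8. Irx4 is known as a gene of the ventricle that restrains atrial genes, Irx3 acts in the His-Purkinje system, where it represses the connexin gene Gja1 and favours Gja5, and Irx5 sets the gradient of repolarization across the ventricular wall by repressing Kcnd2.

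Promoters from RefSeq were at hand for 3 of the 6 genes, Irx2, Irx3 and Irx4. They are shown because they were available, and the table's coordinates are of build GRCm38.p6, not of the build of the files, GRCm39. Each run is the 250 bases before the annotated start, 5′ to 3′ on the strand of the gene, and capitals mark matches on either strand to the short promoter motifs CCAAT and, for the so-called GC box, GGGCGG.
Irx2, chr13:72628570-72628819, plus strand: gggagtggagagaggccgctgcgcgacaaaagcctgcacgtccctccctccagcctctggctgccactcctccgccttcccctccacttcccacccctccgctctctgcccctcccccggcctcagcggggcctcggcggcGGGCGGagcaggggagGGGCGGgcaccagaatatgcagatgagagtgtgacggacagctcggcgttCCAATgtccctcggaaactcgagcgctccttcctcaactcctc
Irx4, chr13:73260247-73260496, plus strand: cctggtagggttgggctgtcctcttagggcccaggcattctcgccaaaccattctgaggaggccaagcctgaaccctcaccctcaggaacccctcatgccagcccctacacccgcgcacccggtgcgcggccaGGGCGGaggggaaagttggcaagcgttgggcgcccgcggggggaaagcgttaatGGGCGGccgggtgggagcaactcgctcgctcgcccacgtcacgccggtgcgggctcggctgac
Irx3, chr8:91801655-91801904, minus strand: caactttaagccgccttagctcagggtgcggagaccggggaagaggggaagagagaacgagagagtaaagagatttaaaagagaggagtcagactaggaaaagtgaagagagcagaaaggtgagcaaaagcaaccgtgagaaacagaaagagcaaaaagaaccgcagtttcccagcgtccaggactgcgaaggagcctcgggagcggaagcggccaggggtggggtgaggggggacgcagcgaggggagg

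The window of Irx2 held 2 GC boxes and 1 CCAAT, that of Irx4 held 2 GC boxes, and that of Irx3 held neither. Over the 32851 promoters of the table, 32.7% held a GC box and 33.8% a CCAAT in a window of this length. None of the 3 held TATAAA, the TATA box, which 12.4% of all promoters held. Nor did any hold AGATAA, the core bound by GATA factors, which 9.99% held. The palindrome of the Iroquois proteins themselves, ACANNTGT, was in 6.31% of all promoters and in none of the 3. No motif searched overlapped another in these windows. G and C made up 68.4% of the Irx2 window, 68.8% of the Irx4 window and 56.0% of the Irx3 window, against a median of 52.4% over all promoters. The ratio of observed to expected CpG was 0.666, 0.744 and 0.790 in that order, against a median of 0.374.

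Adam17 itself was lower in each A17α-MHCKO mouse (27.9 to 36.8 CPM, the count as a share of the library total scaled by TMM) than in each A17fl/fl mouse (43.6 to 70.9 CPM), although exon 2 alone is removed and other cells keep it. A17fl/fl + NS replicate 1 stood apart from the other 11 libraries: its summed neutrophil markers were at 2327 CPM, against 5.39 to 68.4 CPM in the rest, and its summed fibroblast markers at 9681 CPM, against 3603 to 5813 CPM. What set it apart was not tested, and several results below are also given without it.

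Of the 6 genes, 5 were counted in every library and passed the filter on low counts. Per length, the ventricular gene Irx4 was the most abundant, with a deposited FPKM (the count scaled by gene length and library total) of 6.85 at the lowest, 12.7 at the median and 15.7 at the highest of the 12 mice. Irx3, the gene of the conduction system, followed with 4.35, 7.42 and 12.2 FPKM. The other three were lower by several fold: Irx5 had 1.13, 1.89 and 3.38 FPKM, Irx1 had 0.831, 1.85 and 2.74 FPKM, and Irx2 had 0.372, 0.910 and 1.38 FPKM. Irx6 was all but silent, with 1 fragment in A17α-MHCKO + NS replicate 2 and 0 in the other 11 libraries, where a count of 0 allows up to 0.173 to 0.195 CPM. It takes no part in what follows.

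The order of the levels was the same in every mouse except in 1 place. FPKM of Irx4 exceeded that of Irx3 in 12 of 12 libraries, by 1.01 to 2.87 times, so that the 2 genes were close in some mice. Irx3 exceeded Irx5 in 12 of 12 libraries, by 3.12 to 5.49 times. Irx5 and Irx1 changed places, with Irx5 higher in 6 of 12 libraries, and both exceeded Irx2 in 12 of 12. Irx3 and Irx4 together made up 76.4% to 84.5% of the summed FPKM of the family. Among the 16101 genes that passed the filter, 83.1% had a lower mean FPKM than Irx4 and 76.4% a lower one than Irx3, against 44.8% for Irx5, 42.2% for Irx1 and 28.0% for Irx2.

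**Figure D1:**
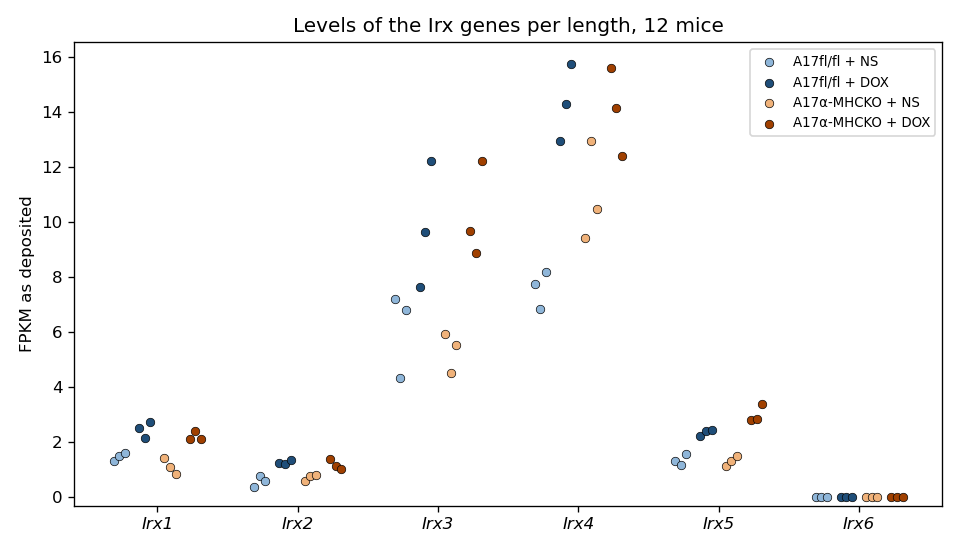
Deposited FPKM of the 6 Irx genes, with 1 point for each of the 12 mice, coloured by group. Irx4 and Irx3 lie above the others in every mouse, Irx6 is at or next to 0, and the DOX mice of a genotype sit above its NS mice for Irx1 to Irx5, except for Irx4 in A17α-MHCKO mice (at least 12.4 against at most 13.0 FPKM).

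The first question was what doxorubicin did to these genes in hearts with intact Adam17. All 5 counted genes were higher in each A17fl/fl + DOX mouse than in each A17fl/fl + NS mouse, while 7.15% of all tested genes were higher without overlap in this comparison. Their log2 differences lay between 0.66 and 1.10 with a median of 0.78, where the median of all tested genes was -0.04. Because the family was chosen from this kind of difference, nothing is read from that count. In bulk tissue a change in the share of cells and a change in RNA per cell cannot be told apart.

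On chromosome 13, Irx4 was at 20.3, 18.9 and 24.8 CPM after NS and at 36.0, 39.3 and 43.3 CPM after DOX. The groups did not overlap, and the log2 difference was 0.89 (SE 0.15). Irx1, a gene of the ventricular septum, was at 4.62, 5.56 and 6.45 CPM after NS and at 9.37, 7.94 and 10.1 CPM after DOX, a log2 difference of 0.72 (SE 0.24). Irx2, its partner in septum and other embryonic tissues, was at 1.79, 3.89 and 3.26 CPM after NS and at 6.35, 6.03 and 6.84 CPM after DOX. Irx2 had the largest log2 difference of these genes here, 1.10 (SE 0.26), and its lowest value was in A17fl/fl + NS replicate 1, without which the difference was 0.84.

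On chromosome 8, Irx5 was at 5.71, 5.45 and 7.83 CPM after NS and at 10.31, 11.02 and 11.19 CPM after DOX, a log2 difference of 0.78 (SE 0.17). Irx3 was at 33.0, 21.0 and 36.0 CPM after NS and at 37.2, 46.5 and 58.8 CPM after DOX. Its groups only just failed to overlap, at 36.0 against 37.2 CPM, and its log2 difference of 0.66 (SE 0.24) was the smallest of the family. Leaving out any 1 of the 12 libraries kept every one of the 5 differences positive, between 0.46 (Irx3) at the lowest and 1.35 (Irx2) at the highest.

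**Figure D2:**
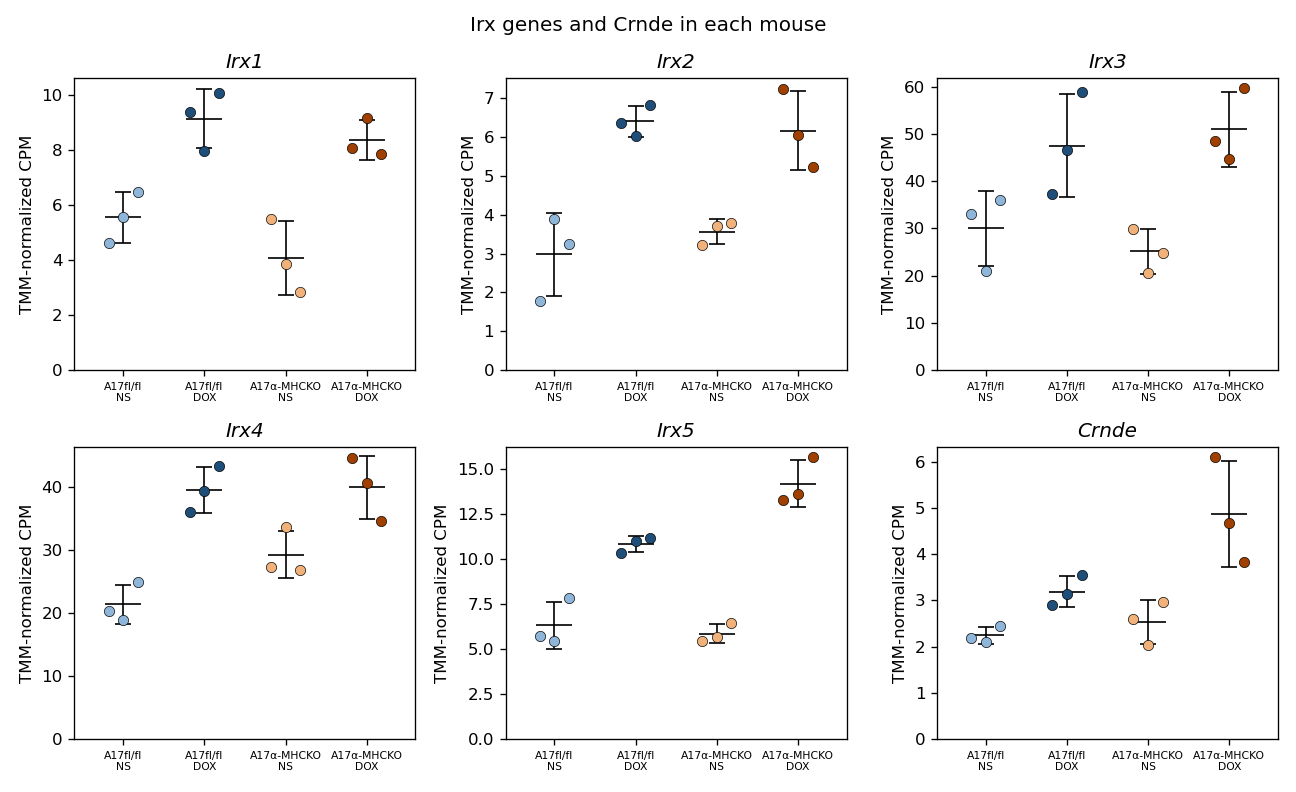
TMM-normalized CPM of 5 Irx genes and of Crnde, the noncoding neighbour of Irx5, in each of 3 mice a group (points), with mean and SD (bars) and a scale from 0 in each panel. In each genotype every DOX mouse lies above every NS mouse in all 6 panels, narrowly so for Irx3 in A17fl/fl mice.

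The same comparison in hearts without cardiomyocyte Adam17 gave the same direction. All 5 genes were again higher in each A17α-MHCKO + DOX mouse than in each A17α-MHCKO + NS mouse, while 9.16% of all tested genes were. The log2 differences lay between 0.45 and 1.28 with a median of 1.02, where the median of all tested genes was 0.00. Here Irx5 had the largest difference and Irx4 the smallest.

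Irx5 was at 5.43, 5.66 and 6.45 CPM after NS and at 13.3, 13.6 and 15.7 CPM after DOX, so that a wide gap lay between the groups. The log2 difference was 1.28 (SE 0.17). Irx3 was at 29.9, 20.5 and 24.9 CPM after NS and at 48.4, 44.6 and 59.8 CPM after DOX, a log2 difference of 1.02 (SE 0.24). The groups of Irx3 were thus well apart, where in A17fl/fl mice they nearly met.

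Irx1 was at 5.49, 3.84 and 2.85 CPM after NS and at 8.06, 9.16 and 7.83 CPM after DOX, a log2 difference of 1.04 (SE 0.24). Irx2 was at 3.21, 3.71 and 3.78 CPM after NS and at 7.24, 6.04 and 5.22 CPM after DOX, a log2 difference of 0.79 (SE 0.26). Irx4 was at 27.2, 33.6 and 26.9 CPM after NS and at 44.5, 40.6 and 34.6 CPM after DOX, a log2 difference of 0.45 (SE 0.15), with 33.6 against 34.6 CPM between the nearest mice. That narrow gap closed when libraries were scaled by their totals, as in the deposited FPKM, where 4 of the 5 genes kept the groups apart and Irx4 did not, whereas with DESeq2's size factors all 5 kept them apart. With any 1 library left out, the 5 differences stayed between 0.36 (Irx4) and 1.35 (Irx5).

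With both genotypes pooled, the lowest of the 6 DOX mice was above the highest of the 6 NS mice for all 5 genes, and 0.857% of all tested genes were higher without overlap in this way. Scaled by library totals, Irx4 again overlapped and 4 of the 5 did not. Mean CPM after DOX was 1.57 times that after NS for Irx4, 1.79 times for Irx3, 1.82 times for Irx1, 1.92 times for Irx2 and 2.05 times for Irx5. Summed FPKM of the family was 14.7 to 20.7 in the NS mice and 26.6 to 34.5 in the DOX mice. The SD of log2 CPM within groups was 0.17 for Irx5, 0.18 for Irx4, 0.28 for Irx1, 0.31 for Irx2 and 0.32 for Irx3, against 0.12, 0.06, 0.14, 0.16 and 0.06 from counting alone. Mice thus differed more than counting error, by most for Irx3, which rested on 351 to 984 fragments a library, and by least for Irx5.

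**Figure D3:**
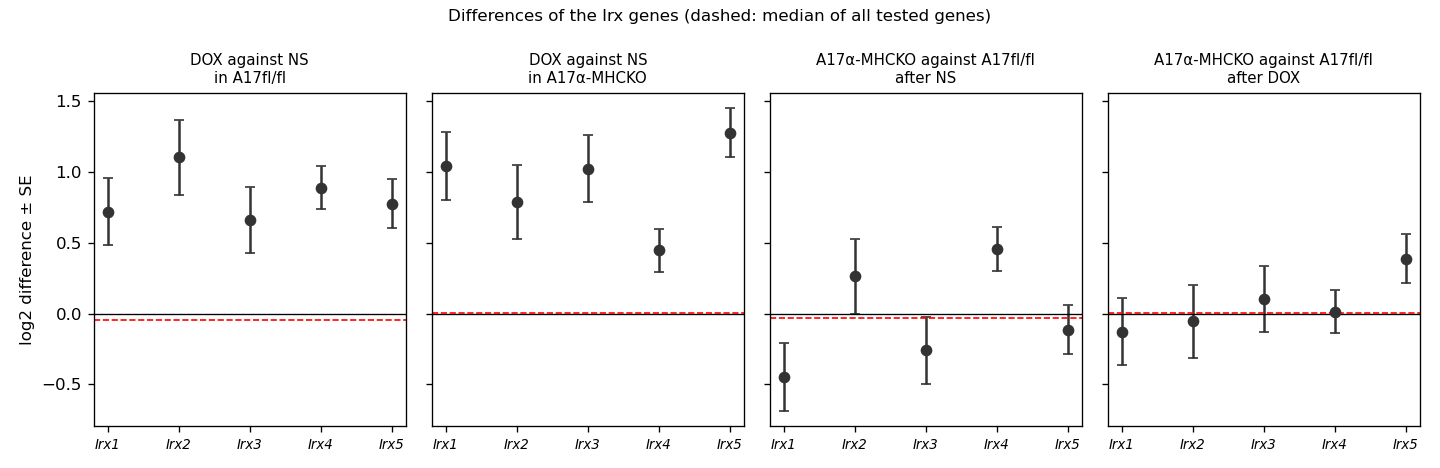
Log2 differences of the 5 counted Irx genes with their approximate SE, in 4 comparisons of 3 mice against 3, with the median of all tested genes as a dashed line. The 10 differences between DOX and NS are positive, from 0.45 to 1.28, while those between the genotypes lie on both sides of 0, from -0.45 to 0.45.

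The summed CPM of a list of ventricular cardiomyocyte markers was also higher after DOX. The summed CPM of 11 such genes was 18182 to 39415 in the NS mice and 41310 to 47428 in the DOX mice, which did not overlap, and its mean was 1.41 times higher after DOX. Without A17fl/fl + NS replicate 1, the lowest sum, the NS mice had 28266 to 39415 CPM. Of the 11 genes, 9 had a higher mean after DOX, 2 of them (Actc1, cardiac actin, and Tnnt2, cardiac troponin T) without overlap, and none was at 0 in every library. Myh6, the main myosin heavy chain of the adult mouse heart, made up 36.4% of the sum and Actc1 19.7%. Single markers differed in their log2 differences after DOX, given here for A17fl/fl and then A17α-MHCKO mice. They were 1.02 and 0.99 for Actc1, 0.53 and 0.004 for Myh6, 0.77 and 2.33 for Myh7, and -0.22 and -0.54 for Ryr2. For Myl2, Myl3 and Hey2, whose DOX and NS mice overlapped, they were 0.55 and 0.95, 0.32 and 0.63, and -0.06 and 0.12. Whether this sum separates ventricle from atrium was not tested, nor can it tell the share of cells from RNA per cell.

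The differences of the family were smaller when each gene was divided by that sum. In A17fl/fl mice the log2 differences of the ratio were 0.57 for Irx2, 0.28 for Irx4, 0.18 for Irx5, 0.12 for Irx1 and 0.06 for Irx3, with a median of 0.18 against 0.78 for CPM, and Irx2 alone of the 5 genes kept DOX and NS mice apart. Without A17fl/fl + NS replicate 1 they were 0.57, 0.59, 0.46, 0.32 and 0.49 in the same order, and 3 genes (Irx2, Irx4 and Irx5) kept the groups apart. In A17α-MHCKO mice the log2 difference of the ratio was 0.82 for Irx5, 0.63 for Irx1 and 0.57 for Irx3, all 3 without overlap, while Irx2 (0.33) and Irx4 (-0.01) overlapped. The ratio of Irx4 to the ventricular markers was thus nearly the same on average in A17α-MHCKO mice after DOX and after NS, with 8.38 to 9.60 and 7.65 to 10.5 CPM per 10000 marker CPM. No share of all tested genes was taken on the scale of this ratio, so nothing is read from the counts of genes without overlap. The part of the ventricular markers in the higher level of the family was not tested.

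**Figure D4:**
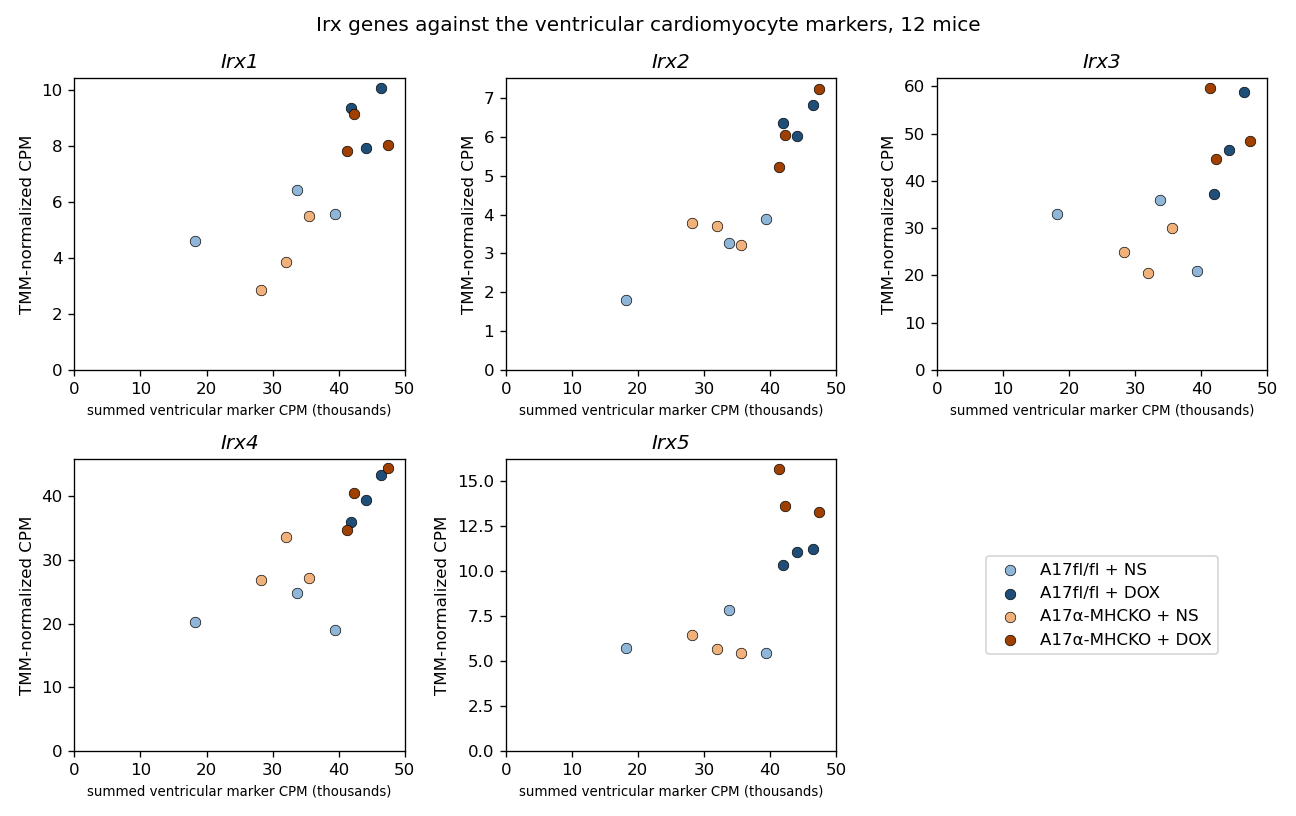
TMM-normalized CPM of 5 Irx genes against the summed CPM of 11 ventricular cardiomyocyte markers, with 1 point for each of the 12 mice. All 6 DOX mice lie to the right of and above all 6 NS mice in every panel, and the NS mouse farthest to the left is A17fl/fl + NS replicate 1.

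Over both genotypes, the summed markers of other cell types overlapped between the treatments. These were the sums of atrium (443 to 8920 CPM after NS, 1931 to 5104 CPM after DOX), fibroblasts, endothelium, smooth muscle, macrophages, neutrophils, adipocytes, mesothelium, skeletal muscle, neurons and red cells. Within a genotype, 3 of these sums did not overlap. In A17α-MHCKO mice the fibroblast sum was 4459 to 5813 CPM after NS and 3603 to 4073 CPM after DOX, and the red cell sum 815 to 972 and 1133 to 1267 CPM. In A17fl/fl mice the endothelial sum was 1336 to 1410 CPM after NS and 1474 to 1710 CPM after DOX. The part of these cell types in the differences of the Irx genes was not tested. The lung epithelium sum was at 126 CPM in A17fl/fl + NS replicate 2 and at most 2.37 CPM in the DOX mice. No marker of any list was at 0 in all 12 libraries.

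The next question was whether loss of Adam17 in cardiomyocytes changed the family without doxorubicin. Among NS mice 1 of the 5 genes differed without overlap, while 10.9% of all tested genes did so in either direction. That gene was Irx4, at 26.9 to 33.6 CPM in A17α-MHCKO mice against 18.9 to 24.8 CPM in A17fl/fl mice, a log2 difference of 0.45 (SE 0.15). Irx1 was lower by a log2 difference of -0.45 (SE 0.24), with groups that overlapped. Irx3 (-0.26), Irx2 (0.26) and Irx5 (-0.11) overlapped too, and those of Irx2 and Irx5 changed sign when 1 A17fl/fl + NS mouse was left out (replicate 1, -0.003, and replicate 3, 0.07). The median of the 5 genes was -0.11, against -0.03 for all tested genes.

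Between the genotypes after DOX, 1 of the 5 genes again differed without overlap, while 14.1% of all tested genes did. Here the gene was Irx5, at 13.3 to 15.7 CPM in A17α-MHCKO mice against 10.3 to 11.2 CPM in A17fl/fl mice, a log2 difference of 0.39 (SE 0.17). Irx1 (-0.13), Irx2 (-0.05), Irx3 (0.10) and Irx4 (0.01) had SE of 0.15 to 0.26 and overlapped. A share of 1 in 5 rests on a single gene in each of these comparisons.

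The difference of the DOX effects, A17α-MHCKO less A17fl/fl, was positive on the log2 scale for Irx5 (0.50, SE 0.24), Irx3 (0.36, SE 0.33) and Irx1 (0.32, SE 0.33). It was negative for Irx4 (-0.44, SE 0.22) and Irx2 (-0.32, SE 0.37). With each library left out these kept their sign, but that of Irx2 was -0.05 without A17fl/fl + NS replicate 1, -0.21 without A17α-MHCKO + DOX replicate 3 and -0.56 without A17fl/fl + NS replicate 2. That of Irx1 was 0.11 without A17α-MHCKO + NS replicate 3, 0.20 without A17fl/fl + NS replicate 3 and 0.60 without A17α-MHCKO + NS replicate 1. That of Irx3 was 0.21 without A17fl/fl + NS replicate 3, A17fl/fl + DOX replicate 1 or A17α-MHCKO + NS replicate 2, 0.23 without A17α-MHCKO + DOX replicate 3 and 0.56 without A17fl/fl + NS replicate 2, and that of Irx5 was 0.32 without A17fl/fl + NS replicate 3. The 2 genes farthest from 0, Irx5 and Irx4, were about 2 SE away and had opposite signs. Relative to the ventricular markers, Irx4 was again the gene with the smallest DOX difference in A17α-MHCKO mice and Irx5 the one with the largest.

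The 5 genes went together over all mice and much less so within groups. Over the 12 libraries, Pearson's r of log2 CPM between pairs of members was 0.582 to 0.886 with a median of 0.782, and the pair with the highest r was Irx3 and Irx5, neighbours on chromosome 8. On deviations from the group means, which take out treatment and genotype, r was -0.436 to 0.561 with a median of 0.198, and Irx3 and Irx5 had again the highest. Correlation with the log2 sum of the ventricular markers was 0.919 for Irx2, 0.72 for Irx1, 0.697 for Irx4, 0.662 for Irx5 and 0.492 for Irx3. Without A17fl/fl + NS replicate 1 it was 0.847, 0.907, 0.610, 0.722 and 0.737 in the same order of genes, so that the order changed. The points share libraries and depth, and these values are descriptions. As the family was chosen with the differences between these libraries in view, nothing is read from the high r over the 12 libraries.

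Over 14459 genes with a mean of at least 1 CPM, those most like each member were named by the highest r over the 12 libraries. For Irx2 they were Homer2 (0.981), a synaptic and muscle scaffold, Gmpr (0.965), a guanosine monophosphate reductase, and Gpr22 (0.959), a heart and brain receptor, and Irx2 had the closest companions of the 5 genes also on deviations from the group means (0.845 to 0.935). For Irx1 they were Pacsin3 (0.947), Mybpc3 (0.927), the cardiac myosin-binding protein C, and Ehbp1l1 (0.909). Irx4 had Pnkd (0.933), Rsad1 (0.921) and Hmg20b (0.919), and Irx3 had Cyb561d1 (0.916), Gm4798 (0.904) and Pou3f1 (0.890), a POU homeobox factor. Irx5 had Cpsf3 (0.931), a cleavage factor of messenger RNA, Rbmx (0.917) and Dtna (0.898), a dystrobrevin, and for the last 2 r fell to 0.142 and -0.08 on deviations from the group means.

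Few genes next to the family could be followed. In GENCODE M21 (GRCm38), 24 annotated genes lay within the clusters between the outer Irx genes, of which 4 passed the filter on low counts. Of 11 tested neighbours within or next to the clusters, 0 met the study's limits in any comparison (absolute log2 difference over 1, unadjusted p under 0.05 by edgeR's quasi-likelihood test, mean FPKM over 1).

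Crnde, a long noncoding RNA 1.5 kb from Irx5 on the opposite strand, was at 2.19, 2.09 and 2.44 CPM in A17fl/fl + NS mice and at 2.89, 3.14 and 3.54 CPM in A17fl/fl + DOX mice, a log2 difference of 0.51 (SE 0.24, edgeR adjusted p = 0.482). In A17α-MHCKO mice it was at 2.59, 2.03 and 2.96 CPM after NS and at 6.11, 4.68 and 3.83 CPM after DOX, a log2 difference of 0.95 (SE 0.24, edgeR adjusted p = 0.655). Like Irx5, it kept DOX and NS mice apart in each genotype and was higher in every A17α-MHCKO + DOX mouse than in every A17fl/fl + DOX mouse, but no adjusted p passed 0.05. Irx3os lies across Irx3 on the opposite strand with 6 to 18 fragments a library, and as the strand setting of the counting is not given in the sources used here, fragments of such pairs may not be fully separated.

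Fto, the gene on the other side of Irx3, was nearly level, with log2 differences after DOX of 0.06 (SE 0.14) in A17fl/fl mice and -0.05 (SE 0.14) in A17α-MHCKO mice. Ndufs6, a subunit of respiratory complex I next to Irx4, had log2 differences of 0.51 (SE 0.21, edgeR adjusted p = 0.433) and 0.57 (SE 0.21, edgeR adjusted p = 0.729). Its DOX and NS mice were apart in each genotype, at 98.1 to 111 against 139 to 172 CPM and at 108 to 132 against 137 to 254 CPM.

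Of the 11 tested neighbours, 2 were lower after DOX without overlap in A17α-MHCKO mice. The share of all tested genes lower in this way was not taken, so nothing is read from that count. Ice1, a component of the little elongation complex beyond Adamts16 on the side of Irx1, was at 58.6 to 74.9 CPM after NS and at 41.7 to 49.2 CPM after DOX, a log2 difference of -0.55 (SE 0.15, edgeR adjusted p = 0.666). Mmp2, a matrix metalloproteinase beyond Irx6, was at 120 to 191 CPM after NS and at 67.1 to 102 CPM after DOX, a log2 difference of -0.73 (SE 0.23, edgeR adjusted p = 0.705). In A17fl/fl mice both overlapped, with log2 differences of 0.03 and 0.02. Gm36670, a noncoding RNA between Irx3 and Irx5, was at 0, 0.299 and 0.439 CPM after NS and at 0.692, 0.800 and 2.05 CPM after DOX in A17fl/fl mice. Its log2 difference of 2.25 (SE 0.91, unadjusted p = 0.0303, edgeR adjusted p = 0.433) passed the limits of size and unadjusted p but not that of FPKM, and it rested on 0 to 33 fragments a library. In A17α-MHCKO mice its groups overlapped.

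Genes of 4 context lists were counted, each by the study's limits: conduction system genes, repolarization channel genes, other TALE homeobox genes and cardiac transcription factors. Only Gja5, Gja1 and Kcnd2 were taken as known partners or targets of Iroquois factors. Among all tested genes above the FPKM limit, these limits took 3.86% after DOX in A17fl/fl mice and 0.915% after DOX in A17α-MHCKO mice. They took 4.07% between genotypes after NS and 0.288% between genotypes after DOX. For the difference of the DOX effects, with no FPKM limit, they took 3.2% of the 16101 tested genes. At an adjusted p under 0.05, edgeR's quasi-likelihood test took 0, 0, 3, 1 and 0 genes in that order (1721, 1033, 1633, 435 and 965 at an unadjusted p under 0.05, and 151, 40, 177, 3 and 21 by DESeq2 at an adjusted p under 0.05). No gene of the 4 lists was among those edgeR took at an adjusted p under 0.05, and all counts below rest on unadjusted p-values.

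Of 13 conduction system genes above the FPKM limit, 0 were called after DOX in A17fl/fl mice and 1, lower, in A17α-MHCKO mice. Between genotypes after NS, 2 were called, both higher in A17α-MHCKO mice, and 0 after DOX. Hcn2, a pacemaker channel, was at 12.8, 24.1 and 18.9 CPM in A17fl/fl + NS mice and at 45.1, 50.5 and 42.3 CPM in A17α-MHCKO + NS mice, a log2 difference of 1.31 (SE 0.22, edgeR adjusted p = 0.108), called in all 18 alternatives. Over these alternatives the adjusted p of Hcn2 ranged from 0.000116 by DESeq2 to 0.774 by edgeR. Gja5, the connexin 40 gene favoured by Irx3, was at 9.84 to 17.7 CPM in A17fl/fl + NS mice and at 16.4, 52.8 and 39.4 CPM in A17α-MHCKO + NS mice, a log2 difference of 1.29 (SE 0.40, edgeR adjusted p = 0.338). The groups of Gja5 overlapped, and the difference was 0.93 without A17α-MHCKO + NS replicate 2. The summed atrial markers were at 4147, 6916 and 8920 CPM in these A17α-MHCKO mice and at 1085, 7928 and 443 CPM in the A17fl/fl mice.

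After DOX, Gja5 fell in A17α-MHCKO mice to 11.02, 16.2 and 21.5 CPM, by a log2 difference of -1.16 (SE 0.40, edgeR adjusted p = 0.712), and the call was lost without A17α-MHCKO + NS replicate 2 (-0.79) or A17α-MHCKO + DOX replicate 1. In A17fl/fl mice it was at 24.6, 25.9 and 15.5 CPM after DOX, a log2 difference of 0.57 (SE 0.40, edgeR adjusted p = 0.626). Its direction was that of Irx3 in A17fl/fl mice and the opposite in A17α-MHCKO mice. The summed atrial markers after DOX were at 1966, 1980 and 4240 CPM in A17α-MHCKO mice and at 5104, 2677 and 1931 CPM in A17fl/fl mice. The part of atrial tissue in the Gja5 values was not tested. Gja1, the connexin 43 gene repressed by Irx3, was at 154 to 232 CPM in A17fl/fl + NS mice and at 265 to 380 CPM in A17fl/fl + DOX mice, a log2 difference of 0.60 (SE 0.27, edgeR adjusted p = 0.461) that missed the limit of size. In A17α-MHCKO mice Gja1 overlapped, with a log2 difference of 0.28 (SE 0.27).

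For the difference of the DOX effects, A17α-MHCKO less A17fl/fl, 2 of 20 conduction genes were called, Hcn2 at -1.36 (SE 0.31, edgeR adjusted p = 0.815) and Gja5 at -1.72 (SE 0.57, edgeR adjusted p = 0.828), and both calls held in all 17 alternatives. No FPKM limit was set on this difference. Of the 3 other lists, 1 gene was called, the TALE repressor Tgif2 at -2.47 (SE 0.99, edgeR adjusted p = 0.828), which had 4 to 45 fragments a library and was -3.96 without A17fl/fl + NS replicate 1. The mean FPKM of Tgif2 was at most 0.301 in any group, below the study's limit. Its call held in 11 of 16 alternatives and was lost without A17fl/fl + NS replicate 3, A17fl/fl + DOX replicate 1, A17α-MHCKO + NS replicate 3 or A17α-MHCKO + DOX replicates 1 or 3.

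**Figure D5:**
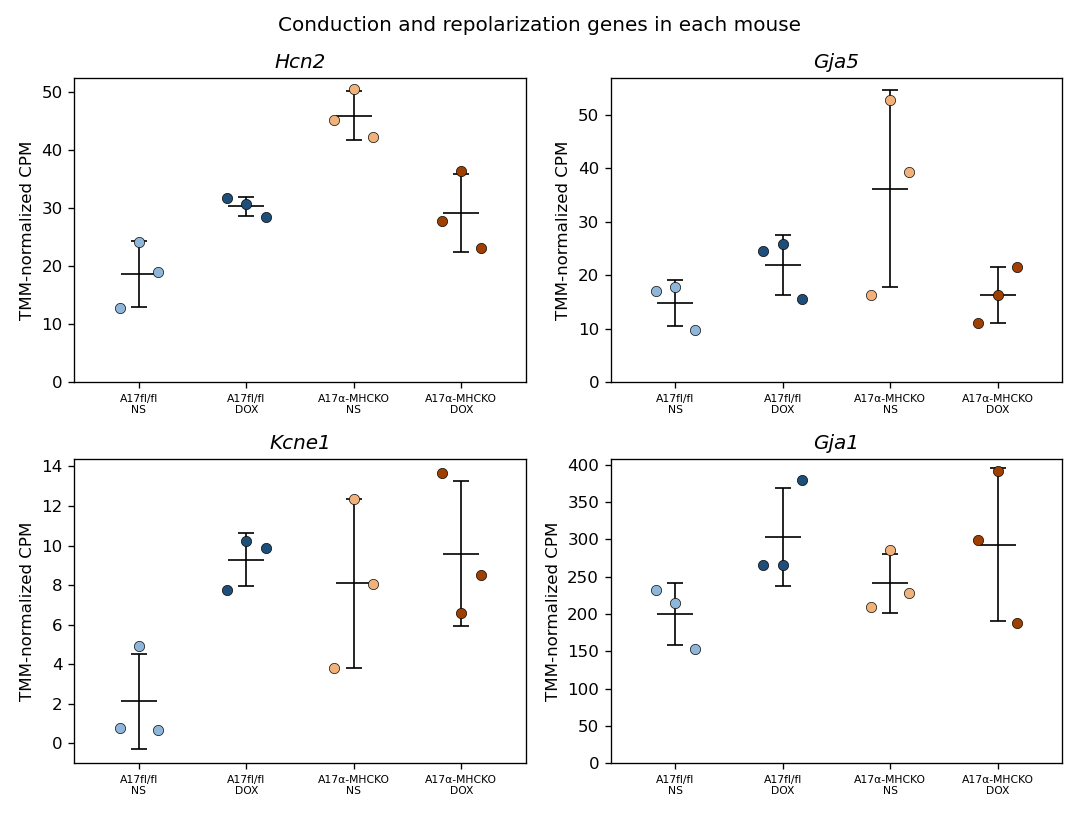
TMM-normalized CPM of Hcn2, Gja5, Kcne1 and Gja1 in each of 3 mice a group (points), with mean and SD (bars). Hcn2 is highest in the 3 A17α-MHCKO + NS mice, at 42.3 to 50.5 CPM, whereas Gja5, Kcne1 and Gja1 overlap between several groups.

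Of 13 repolarization channel genes above the FPKM limit, 2 were called after DOX in A17fl/fl mice, both higher, and 0 in A17α-MHCKO mice. Kcne1, a subunit of the slow delayed rectifier, was at 0.750, 4.91 and 0.689 CPM after NS and at 7.73, 10.2 and 9.88 CPM after DOX in A17fl/fl mice, a log2 difference of 2.13 (SE 0.67, edgeR adjusted p = 0.372). Without A17fl/fl + NS replicate 2, whose atrial and lung markers were also the highest of its group, it was 3.67. Kcnj12, an inward rectifier, had a log2 difference of 1.01 (SE 0.33, edgeR adjusted p = 0.378), which was 0.68 and no longer called without A17fl/fl + NS replicate 1 and 1.61 without A17fl/fl + NS replicate 2. Its call was also lost without A17fl/fl + NS replicate 3 or A17fl/fl + DOX replicate 3, and with the 2 groups fitted alone. Kcne1 was also called higher in A17α-MHCKO + NS than in A17fl/fl + NS mice, by 1.94 (SE 0.67, edgeR adjusted p = 0.357). That call was lost without A17α-MHCKO + NS replicate 2 and with the 2 groups fitted alone, and the difference was 3.48 without A17fl/fl + NS replicate 2.

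Kcnd2, the channel gene repressed by Irx5, was at 3.92, 28.9 and 14.2 CPM in A17fl/fl + NS mice and at 15.3, 15.0 and 13.7 CPM in A17fl/fl + DOX mice, a log2 difference of -0.10 (SE 0.48, edgeR adjusted p = 0.955) that was -0.56 without A17fl/fl + NS replicate 1 and 0.70 without A17fl/fl + NS replicate 2. In A17α-MHCKO mice it was at 23.2, 19.6 and 20.3 CPM after NS and at 11.5, 15.9 and 17.2 CPM after DOX, a log2 difference of -0.50 (SE 0.48, edgeR adjusted p = 0.886). Each A17α-MHCKO + DOX mouse was thus below each A17α-MHCKO + NS mouse, by about the size of the fitted error. Its widest spread was among the A17fl/fl + NS mice.

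Of the other TALE homeobox genes, the Meis, Pbx, Pknox and Tgif genes, 1 of 6 above the FPKM limit was called after DOX in A17fl/fl mice and 0 of 4 in A17α-MHCKO mice. That gene was Tgif1, a repressor, at 34.1, 5.50 and 4.70 CPM after NS and at 5.09, 4.19 and 4.41 CPM after DOX. Its log2 difference of -1.69 (SE 0.66, edgeR adjusted p = 0.423) rested on A17fl/fl + NS replicate 1, without which it was -0.16 and not called. The call was also lost without A17fl/fl + DOX replicate 2 or 3, with a replicate block and with the 2 groups fitted alone. The 10 tested genes of this list had a median log2 difference after DOX of 0.10 in A17fl/fl mice and -0.06 in A17α-MHCKO mice.

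Of 14 cardiac transcription factors above the FPKM limit, 0 were called in any comparison of a pair of groups. Gata4, a zinc finger factor of cardiomyocytes, had the smallest p after DOX in A17fl/fl mice, at 42.1, 58.0 and 63.6 CPM after NS and at 114, 112 and 78.6 CPM after DOX, a log2 difference of 0.90 (SE 0.23, edgeR adjusted p = 0.334). The medians of the conduction, repolarization and cardiac factor lists after DOX were 0.49, 0.35 and 0.26 in A17fl/fl mice and -0.14, -0.20 and -0.17 in A17α-MHCKO mice. Without A17fl/fl + NS replicate 1 the first 3 were 0.27, 0.10 and 0.03. The corresponding medians of the Irx genes were 0.78 and 1.02, and the first was 0.72 to 0.96 with any 1 library left out. As the Irx genes were chosen on such differences, nothing is read from their medians beside those of the lists.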

How the data were processed

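Left ventricles of 12 mice in 4 groups of 3 were compared. Per the study's methods, the authors made mRNA libraries with a stranded kit, read them from both ends, and used StringTie, TMM and edgeR. The submitters' processing notes name CASAVA 1.8, HISAT2, SAMtools 1.3.1, edgeR and GRCm39. The strand setting and annotation release are not given in the sources used here. The authors deposited unnormalized whole-number counts and FPKM (count per length and library total) of each mouse. The labels number the samples of a group without naming animals, so p-values measure the spread between these samples.

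The counts went into edgeR 4.0.16 (R 4.3.3): filterByExpr (16101 of 53465 genes), TMM, glmQLFit with a mean for each group, and glmQLFTest over all genes with Benjamini-Hochberg adjustment, for 5 contrasts. SE are approximate (absolute log2 difference over the square root of F). Calls follow the study's limits: absolute log2 difference over 1, unadjusted p under 0.05 and, between 2 groups, mean FPKM over 1 in either. FPKM served for levels between genes. The fit was tested on simulated data. Total counts were 15950717 to 21725076, a precision that is poor for genes near 1 CPM.

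The members and lists were chosen with earlier results of these data known. Named are the Irx genes, the 3 tested genes of at least 1 CPM most correlated with each, the called genes of 4 lists (up to 4 by p, or the smallest p), Gja5, Gja1, Kcnd2, neighbours and Adam17, of which the text gives a selection. The markers Actc1, Tnnt2, Myh6, Myh7, Ryr2, Myl2, Myl3 and Hey2 were named after their values were seen. Alternatives were RLE, DESeq2 1.42.0, no filter, 10 counts in every library, 2 groups alone, a replicate block and each library left out. Division by the ventricular markers, overlap under other scalings and the 6 DOX against 6 NS mice were added after seeing the data.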

Additional observations from a re-analysis of the deposited data

Results flagged for a closer look

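For Hcn2, the pacemaker channel gene of the conduction list, the difference of the DOX effects, A17α-MHCKO less A17fl/fl, was -1.36 on the log2 scale (SE 0.31, edgeR's quasi-likelihood adjusted p = 0.815, between 0.0467 and 0.984 over 17 alternatives). It stood out because every A17fl/fl mouse was higher after DOX (28.5 to 31.7 CPM) than after NS (12.8 to 24.1 CPM), while every A17α-MHCKO mouse was lower after DOX (23.2 to 36.5 CPM) than after NS (42.3 to 50.5 CPM). The difference kept its sign with each library left out, between -1.59 without A17fl/fl + NS replicate 2 and -1.15 without A17fl/fl + NS replicate 1. The Irx genes had no such opposite directions.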

How the results depend on the processing

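The 5 differences of the Irx genes between DOX and NS kept their sign in both genotypes under every alternative, except that of Irx4 in A17α-MHCKO mice relative to the ventricular markers. The median over the Irx genes after DOX moved to 0.18 in A17fl/fl and 0.57 in A17α-MHCKO mice relative to those markers, and with each library left out it stayed at 0.72 to 0.96 and 0.83 to 1.17. Between the genotypes it was -0.21 to 0.07 after NS and -0.07 to 0.08 after DOX, and 0.11 to 0.45 for the difference of the DOX effects.

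Counts of genes over the whole table moved more. With the replicate block, 281 genes in place of 454 met the limits after DOX in A17fl/fl mice. Deviations of same-numbered mice correlated at -0.104 to 0.219 over 18 pairs of libraries. With 3 mice a group, such correlations cannot settle whether the numbers pair the mice, and the main fit had no replicate block. With the 2 groups alone, 235 genes met them after DOX in A17fl/fl mice, 164 in place of 106 in A17α-MHCKO mice and 266 in place of 482 between genotypes after NS, and without a filter 982 in place of 516 for the difference of the DOX effects. With each library left out, the counts were 204 (without A17fl/fl + NS replicate 1) to 987 (without replicate 2) after DOX in A17fl/fl mice, 71 to 149 in A17α-MHCKO mice, 254 (without A17fl/fl + NS replicate 1) to 1066 (without replicate 2) between genotypes after NS, 28 to 64 (without A17α-MHCKO + DOX replicate 2) in place of 33 after DOX, and 370 to 1481 (without A17fl/fl + NS replicate 2) for the difference. Without A17fl/fl + NS replicate 3 the first was 734, the third 754 and the last 900, and without A17fl/fl + DOX replicate 3 the first was 296. The causes were not tested. Depth limits Irx2 most, at 31 to 115 fragments a library, and leaves Irx6 unmeasured.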
